A study of Mus musculus with 19 samples.

Results

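The 10 genes of the type 1 and cytotoxic effector programme followed here across PLNs and fat of NOD mice are Ifng, Tbx21, Eomes, Prf1, Gzma, Gzmb, Nkg7, Fasl, Fas and Klrd1. Their probe sets were taken by name, not by measured values, as every probe set of the array that carries 1 of these symbols. The genes themselves were chosen with earlier results of these data known. All 10 genes are on the array, with 13 probe sets of 45037 tested and 10 of 18193 named genes, and 0 of these probe sets name a further gene. The arrays are from female mice of the NOD/LtJx strain, which develops autoimmune diabetes. In PLNs, the lymph nodes that drain the pancreas, the groups were AAT (4 arrays, new onset diabetic mice treated with alpha1 antitrypsin, a serine protease inhibitor), DIA (2 arrays, new onset diabetic, labelled with no treatment) and NOR (4 arrays, normal, not diabetic). Whether the DIA mice of these arrays received insulin is not stated in the study. In fat the groups were PM (3 arrays, new onset diabetic mice given Power Mix, which joins an IL2.Ig agonist, an antagonist type mutant IL15.Ig and rapamycin), AAT (2 arrays), DIA (2 arrays) and NOR (2 arrays). Ages, doses and the fat depot of these arrays are not given in the labels. The labels of all arrays also carry a text on streptozotocin in mice made euglycemic with anti-TNF-α, and do not say that any of these arrays come from such mice. Whether the arrays of 1 group were made from separate animals is not stated either, so that p-values measure only the spread between arrays, which may be technical.

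Type 1 immunity is the arm of the T cell and NK cell response that makes interferon gamma and kills target cells. Its transcription factors Tbx21 (T-bet) and Eomes act on Ifng and on killing genes. Killer cells act by granules, which hold perforin and granzymes, or by Fas ligand, which binds the death receptor Fas on the target. In NOD mice, autoreactive T cells meet islet antigens in the PLNs before they enter the islets, and perforin, Fas and interferon gamma have long been studied as means of beta cell injury in this strain.

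A signal is the linear intensity of a probe set, with every array scaled to the same trimmed mean, and signals of different probe sets are not compared. Changes are on the log2 scale and are given relative to the median change of all probe sets, since this median is not 0. In PLNs this median is −0.11 for DIA over NOR mice, −0.58 for AAT over DIA mice and −0.72 for AAT over NOR mice, and in fat it lies between −0.13 and 0.17. The SE and p of limma belong to the change as measured. A probe set is called at an adjusted p under 0.05 over all probe sets. A second rule, the study thresholds, takes a fold change above 2, as measured, with p unadjusted and not above 0.05. Where a gene has several probe sets, it is counted by the 1 with the highest mean. In bulk tissue, fewer cells of a type and less RNA per cell cannot be told apart.

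The arrays bear out their tissue labels, with 9 to 10 of 10 T cell markers above the array median in PLNs and 5 to 6 of 6 adipocyte markers above it in fat. Several arrays stand apart. The summed signal of 8 pancreatic acinar markers was 293100 in PLN AAT array 3 and 15020 in PLN DIA array 1. The full ranges were 580 to 293100 in AAT, 1197 to 15020 in DIA and 486 to 2082 in NOR. Adipocyte markers summed to 7631 to 27990 in PLN AAT arrays, against 2249 to 3916 in DIA and 2823 to 5358 in NOR. The median signal of an array was 92.3 to 178 in PLN AAT, 152 to 279 in DIA and 179 to 265 in NOR. Statements below that arrays overlap or lie apart are about signals as measured, and so carry these differences as well. In fat, the actin 3' to 5' ratio, a sign of RNA quality, was 3.35 to 6.32 in PM, 5.87 to 9.08 in AAT, 15.2 to 15.5 in DIA and 3.63 to 4.3 in NOR. In PLNs, the 3' to 5' ratio of Gapdh was 7.43 to 25 in AAT, 10 to 10.8 in DIA and 5.55 to 8.01 in NOR, so that DIA and NOR do not overlap. It was highest in AAT arrays 2 (20.6) and 4 (25), and was not used as a covariate. Log2 signals of 2 arrays of a group correlated at 0.705 to 0.890 in PLNs and 0.789 to 0.866 in fat. The number of arrays limits the precision of every value below.

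In PLNs of DIA relative to NOR mice, 0 of the 10 genes were called, with 0.0555% of all probe sets called, and 0 of 10 passed the study thresholds, which 9.81% of all probe sets passed. The median change of the 10 genes was −0.03, with 4 genes above and 6 below the median of all probe sets. Nkg7 was the only 1 of the 10 whose DIA and NOR arrays did not overlap, against 23.1% of all probe sets. After AAT treatment, again 0 of 10 genes were called relative to DIA (0.0999% of all probe sets), and 2 of 10, Prf1 and Nkg7, passed the study thresholds as lower, as did 11.7% of all probe sets. Relative to NOR, 0 of 10 were called in AAT (3.74% of all probe sets), and 2 of 10, Prf1 and Fas, passed the study thresholds as lower, as did 20% of all probe sets. The AAT and DIA arrays did not overlap for 3 of 10 genes (19.5% of all probe sets), and the AAT and NOR arrays for 3 of 10 (15.3%). The comparisons of AAT and NOR with DIA share the same 2 DIA arrays. A count of 2 of 10 genes lies near the share of all probe sets in both comparisons. By limma, the unadjusted p was under 0.05 for 0, 2 and 2 of the 10 genes in the 3 comparisons. Among all 45037 probe sets it was under 0.05 for 4489, 7581 and 11189. With rank product p-values 0, 1 and 0 of the 10 genes passed the study thresholds. The 1 gene was Gzma, as higher in AAT vs DIA, while Prf1, Nkg7 and Fas no longer passed. The 10 genes had a median change of 0.30 relative to DIA and of 0.20 relative to NOR. These medians turn with the DIA array kept: for DIA vs NOR it was 0.62 without DIA array 1 and −0.86 without DIA array 2, and for AAT vs DIA it was −0.45 without DIA array 1 and 1.16 without DIA array 2.

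**Figure D1:**
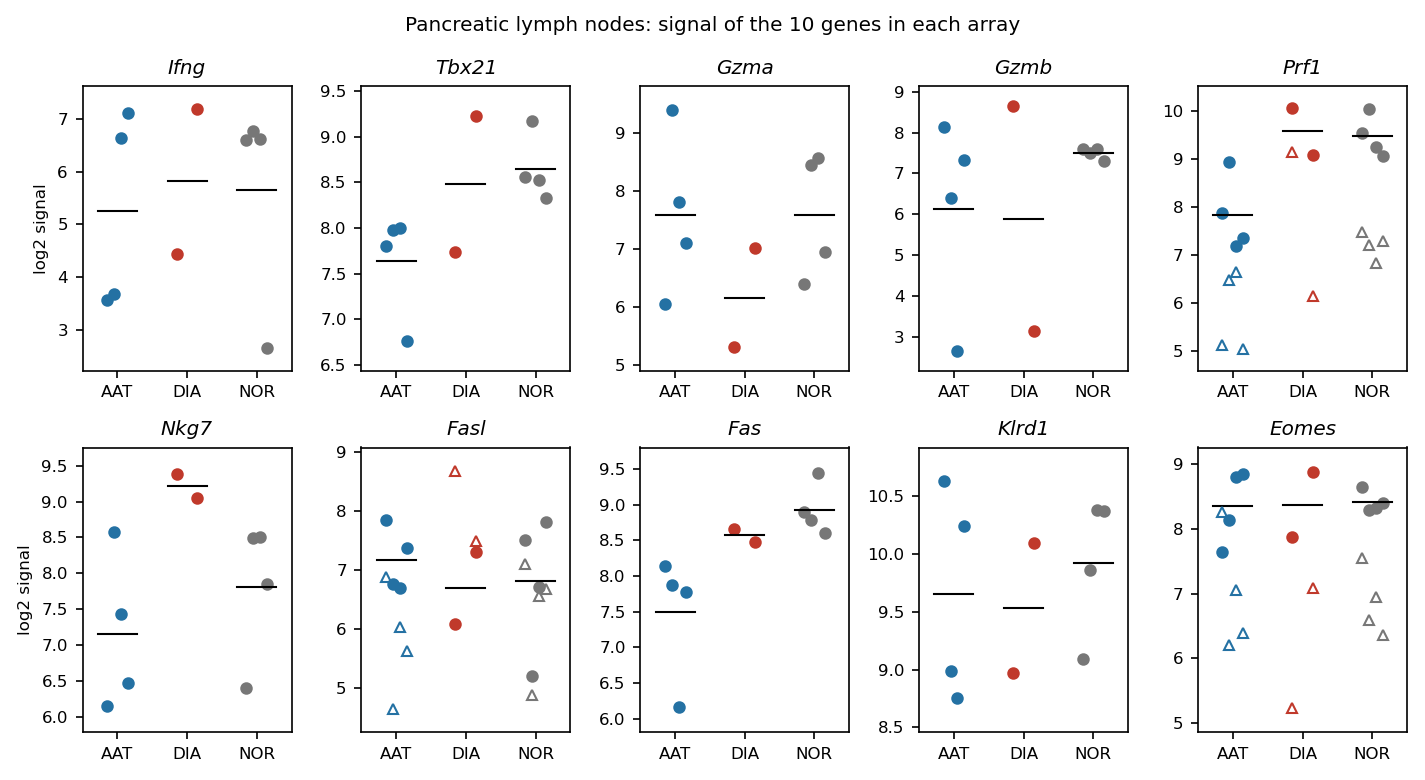
Log2 signal (y axis) of the 10 genes in each PLN array, by group (x axis: AAT, n = 4; DIA, n = 2; NOR, n = 4). Filled circles are arrays at the probe set with the highest mean, bars their group mean, and open triangles a further probe set of the same gene; the y axes differ between panels and do not start at 0. In signal as measured, not set against the array median, Prf1 is lower in all 4 AAT arrays than in the DIA and NOR arrays. Ifng and Gzmb spread widely within groups.

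Prf1 encodes perforin, which opens pores in the target cell membrane. Its signal was 234, 490, 145 and 165 in PLN AAT arrays 1 to 4, against 1090 and 544 in DIA. In NOR it was 750, 1060, 612 and 536. In signal as measured, all 4 AAT arrays lie below every DIA and NOR array, although AAT array 2 comes close to the lowest NOR array. Set against the array median this separation is lost. There AAT array 2 (490 at a median of 92.3) is higher than both DIA arrays (1090 at 279 and 544 at 152) and than NOR array 4 (536 at 243). The change was −1.16 for AAT vs DIA (SE 0.60, adjusted p = 0.184), −0.92 for AAT vs NOR (SE 0.49, adjusted p = 0.0601, and 0.0263 to 0.477 over the alternatives) and 0.22 for DIA vs NOR (SE 0.60, adjusted p = 0.975). A second Prf1 probe set gave 34.6, 89.2, 101 and 32.7 in AAT, 569 and 70.9 in DIA, and 179, 147, 113 and 158 in NOR. Here AAT lies below NOR without overlap in signal as measured, and overlaps DIA array 2. The changes were −1.25 (SE 0.99, adjusted p = 0.346) relative to DIA and −0.66 (SE 0.81, adjusted p = 0.289) relative to NOR.

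Nkg7 encodes a membrane protein of killer cell granules. It had 71.2, 380, 173 and 89.1 in PLN AAT arrays, against 671 and 531 in DIA arrays. The NOR arrays had 84.5, 360, 361 and 230. Both DIA arrays are the highest of all 10 PLN arrays in signal as measured, and AAT and NOR arrays overlap over most of their range. Set against the array median, AAT array 2 (380 at a median of 92.3) is higher than both DIA arrays (671 at 279 and 531 at 152). The change was −1.48 for AAT vs DIA (SE 0.80, adjusted p = 0.22), 1.53 for DIA vs NOR (SE 0.80, adjusted p = 0.59) and 0.07 for AAT vs NOR (SE 0.66, adjusted p = 0.552).

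The promoters of Prf1 and Nkg7, the 2 genes that passed as lower together in AAT vs DIA, are shown with letters of transcription factors of killer lymphocytes, and this pair was chosen after its values were seen. The sequences are from RefSeq (GRCm38.p6), 5' to 3' on the strand of the gene, from 250 bases before to 50 after the start site, and entries were found for 9 of 10 genes. Capitals mark the Runx core TGTGGT, bound by Runx3 and its relatives, or the T-box core GTGTGA, bound by factors such as Tbx21 and Eomes, on either strand (read in reverse, ACCACA and TCACAC). The Prf1 window is chr10:61297586-61297885 on the + strand, and the Nkg7 window is chr7:43436888-43437187 on the + strand.
Prf1: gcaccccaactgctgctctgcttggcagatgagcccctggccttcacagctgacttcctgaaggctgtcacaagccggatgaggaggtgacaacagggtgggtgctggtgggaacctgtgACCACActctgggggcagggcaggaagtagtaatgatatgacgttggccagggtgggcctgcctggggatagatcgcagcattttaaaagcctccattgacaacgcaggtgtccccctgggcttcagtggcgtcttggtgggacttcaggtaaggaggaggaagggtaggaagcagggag
Nkg7: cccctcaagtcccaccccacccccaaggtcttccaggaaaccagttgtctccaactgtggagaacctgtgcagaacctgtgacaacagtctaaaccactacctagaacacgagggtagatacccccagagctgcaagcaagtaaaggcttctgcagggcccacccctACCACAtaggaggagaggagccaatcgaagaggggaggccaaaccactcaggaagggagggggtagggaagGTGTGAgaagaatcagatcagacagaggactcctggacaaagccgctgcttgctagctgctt
In Prf1 the Runx core begins 130 bases before the start site. In Nkg7 it begins 83 bases before the start site, and a T-box core begins 12 bases before it. The Runx core is in 4 of the 9 windows (Prf1, Nkg7, Gzma and Gzmb) and in 16.8% of 32851 promoters of this length, and the T-box core is in 2 of the 9 (Nkg7 and Gzmb) and in 14.5%. A match is a description of letters, not of binding.

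The calls of Prf1 and Nkg7 relative to DIA rest on few arrays, on the scaling and on whether the actin ratio is in the fit. Without DIA array 1, also the array with raised acinar signal, neither passed the study thresholds (Prf1 −0.94, adjusted p = 0.791; Nkg7 −1.59, adjusted p = 0.777), and without DIA array 2 Nkg7 did not (−1.27, adjusted p = 0.225). With each array centred on its median, neither passed relative to DIA (adjusted p = 0.555 for Prf1 and 0.558 for Nkg7), nor did Prf1 relative to NOR (adjusted p = 0.477). Apart from the Gapdh ratio given above, the actin ratio was 1.23 to 2.01 in AAT, 0.881 to 1.1 in DIA and 0.94 to 2.31 in NOR PLNs, so that AAT and DIA do not overlap in it. With this ratio as a covariate, neither gene passed relative to DIA (Prf1 −0.66, adjusted p = 0.453; Nkg7 −0.37, adjusted p = 0.627), and after quantile normalization Nkg7 did not (adjusted p = 0.492). Beside these values, T cell markers summed to 16630 to 36270 in AAT, 17870 to 22910 in DIA and 18470 to 34720 in NOR, which overlap. The 3 NK cell markers measured, of 6 listed, summed to 52.6 to 324 in AAT, 290 to 318 in DIA and 216 to 305 in NOR, and 0 to 1 of them lay above the array median. Their part in the result was not tested.

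Gzma and Gzmb encode granzymes, serine proteases that enter the target through perforin pores. Neither gene passed the study thresholds in PLNs with the settings used throughout. Gzma, a tryptase, had 65.6, 674, 223 and 137 in AAT, 39.4 and 129 in DIA, and 83.7, 347, 377 and 124 in NOR. DIA lies at the low end and overlaps both other groups, with changes of 2.01 for AAT vs DIA (SE 0.97, adjusted p = 0.453) and −1.32 for DIA vs NOR (SE 0.97, adjusted p = 0.68). Gzma passed as higher in AAT vs DIA with the actin covariate (3.10, adjusted p = 0.382), with rank product p-values and without AAT array 1 (2.64, adjusted p = 0.235), and as lower in DIA vs NOR with the actin covariate (−2.54, adjusted p = 0.896). Without DIA array 1 its change for AAT vs DIA was 0.88 (adjusted p = 0.917). Gzmb, which cleaves caspases, had 282, 84.5, 6.37 and 161 in AAT and 398 and 8.86 in DIA. In NOR, in contrast, the 4 arrays had 193, 182, 192 and 159. The change of Gzmb for AAT vs DIA was 0.83 (SE 1.41, adjusted p = 0.944). Both DIA arrays lie outside the NOR range, 1 above and 1 below it, so that the mean change of −1.50 for DIA vs NOR (SE 1.41, adjusted p = 0.772) describes neither array. Without DIA array 1 it was −4.05 (adjusted p = 0.365), past the study thresholds.

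Ifng encodes interferon gamma, the cytokine that defines the type 1 response. It had 12, 12.9, 99.7 and 137 in PLN AAT arrays and 21.8 and 146 in DIA arrays, with 96.6, 109, 98.3 and 6.3 in NOR. Each group holds both very low and higher arrays, the groups overlap throughout, and Ifng lay above the array median in 1 of 10 PLN arrays. Its change was 0.27 for DIA vs NOR (SE 1.46, adjusted p = 0.985) and 0.02 for AAT vs DIA (SE 1.46, adjusted p = 0.867). Tbx21, the lineage factor of type 1 T cells, had 223, 252, 255 and 108 in AAT, 213 and 602 in DIA, and 378, 575, 371 and 322 in NOR. In signal as measured, all AAT arrays lie below all NOR arrays, while the 2 DIA arrays span both. Set against the array median AAT and NOR overlap, with AAT array 2 (252 at a median of 92.3) higher than NOR array 1 (378 at 265). The change of Tbx21 for AAT vs NOR was −0.29 (SE 0.53, adjusted p = 0.24). Eomes, the related factor of NK cells and memory CD8 T cells, had 201, 282, 446 and 463 in AAT, 233 and 471 in DIA, and 402, 315, 320 and 338 in NOR. The groups overlap, with a change of 0.07 for DIA vs NOR (SE 0.60, adjusted p = 0.991) and 0.57 for AAT vs DIA (SE 0.60, adjusted p = 0.994). A second Eomes probe set had 309, 73.5, 133 and 83.9 in AAT, 37.5 and 136 in DIA, and 188, 96.6, 123 and 81.9 in NOR, which overlap as well, and in fat it lay between 10.7 and 41.9 in all 9 arrays.

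Fas, the death receptor, had 283, 235, 71.9 and 219 in PLN AAT, 404 and 357 in DIA, and 478, 439, 695 and 391 in NOR. In signal as measured, AAT arrays lie below all DIA and NOR arrays, and DIA overlaps the low end of NOR. Set against the array median the groups overlap. There AAT array 2 (235 at a median of 92.3) is higher than DIA array 2 (357 at 152) and NOR array 4 (391 at 243). The change was −0.72 for AAT vs NOR (SE 0.53, adjusted p = 0.109) and −0.49 for AAT vs DIA (SE 0.65, adjusted p = 0.399). Without AAT array 3, the array with the highest acinar signal, the change relative to NOR was −0.27 (adjusted p = 0.211). The study thresholds were missed without NOR array 3 (−0.49, adjusted p = 0.245) and with each array centred on its median (adjusted p = 0.641). Fasl, its ligand, is measured by 2 probe sets that differ. The 1 with the higher mean had 233, 109, 103 and 167 in AAT, 67.4 and 158 in DIA, and 182, 36.7, 105 and 225 in NOR, with a change of 1.07 for AAT vs DIA (SE 0.93, adjusted p = 0.813). The other had 118, 25.1, 65.5 and 49.6 in AAT, 411 and 182 in DIA, and 137, 29.4, 95.2 and 102 in NOR. At this probe set both DIA arrays are the highest of the PLN arrays, with changes of −1.71 for AAT vs DIA (SE 1.02, adjusted p = 0.268), past the study thresholds, and 1.90 for DIA vs NOR (SE 1.02, adjusted p = 0.594).

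Klrd1 encodes CD94, which pairs with NKG2 receptors on NK cells and some CD8 T cells. In PLNs it had 1590, 509, 432 and 1210 in AAT, 502 and 1100 in DIA, and 545, 930, 1330 and 1320 in NOR. Low and high arrays occur in every group, and the changes were −0.28 for DIA vs NOR (SE 0.59, adjusted p = 0.885) and 0.70 for AAT vs DIA (SE 0.59, adjusted p = 0.935).

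**Figure D2:**
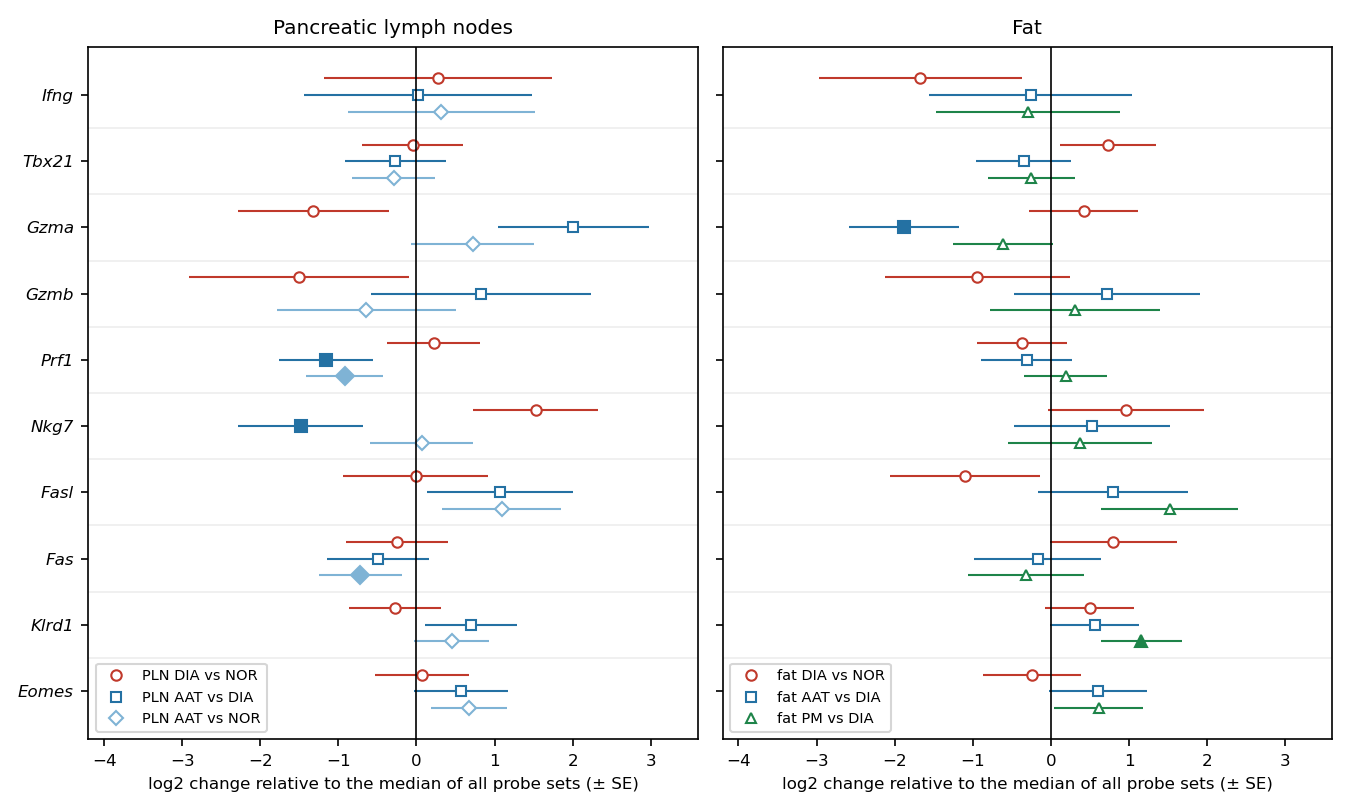
Log2 change relative to the median of all probe sets (x axis, ± SE) of the 10 genes (y axis) at the probe set with the highest mean, in 3 PLN comparisons (left) and 3 fat comparisons (right). Filled symbols passed the study thresholds: Prf1 (−1.16 and −0.92), Nkg7 (−1.48) and Fas (−0.72) in PLNs, and Gzma (−1.88) and Klrd1 (1.16) in fat; no gene was called at an adjusted p under 0.05.

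In fat, 0 of the 10 genes and 0% of all probe sets were called in any of the 6 comparisons. In DIA relative to NOR fat, 0 of 10 passed the study thresholds (7.67% of all probe sets), and the median change of the 10 genes was 0.09. Relative to DIA, 1 of 10, Gzma, passed as lower in AAT (1.82% of all probe sets) and 1 of 10, Klrd1, as higher in PM (4.6%). Relative to NOR, 1 of 10, Gzma, passed as lower in AAT (2.33%) and 1 of 10, Klrd1, as higher in PM (2.31%). In PM relative to AAT, 1 of 10, Gzma, passed as higher (3.05%). Groups did not overlap for 2 of 10 genes in DIA vs NOR (41.3% of all probe sets), 2 of 10 in AAT vs DIA (32.6%) and 3 of 10 in PM vs DIA (30%). They did not overlap for 4 of 10 in AAT vs NOR (31%), 2 of 10 in PM vs NOR (15.2%) and 2 of 10 in PM vs AAT (20.4%). By limma, the unadjusted p was under 0.05 for the 1 gene named in each of these comparisons and for 0 of 10 in DIA vs NOR. With rank product p-values the genes past the study thresholds were partly others. Gzma passed again in AAT vs DIA but not in AAT vs NOR or PM vs AAT, and Klrd1 passed again in PM vs NOR but not in PM vs DIA. Ifng passed as lower in DIA, AAT and PM relative to NOR, and Fasl as higher in PM vs DIA.

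**Figure D3:**
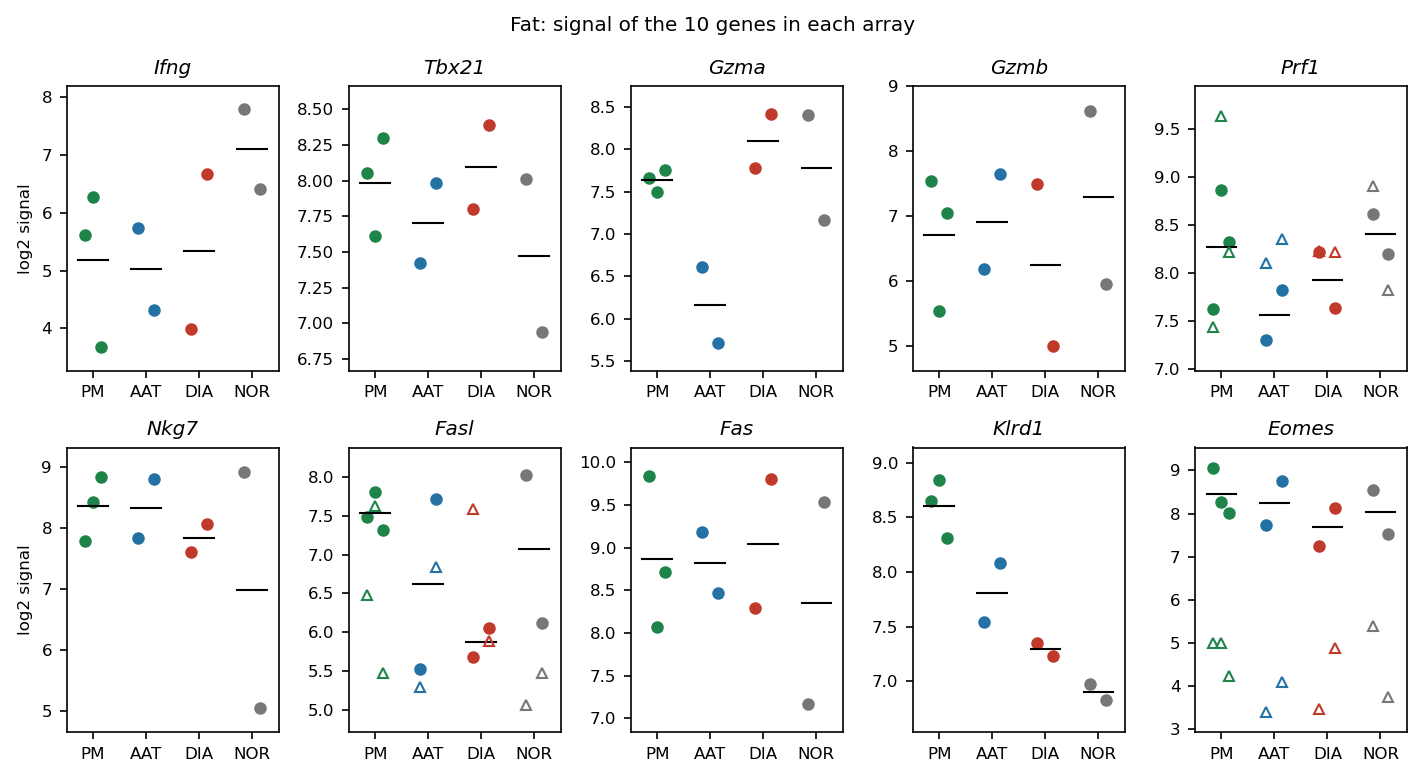
Log2 signal (y axis) of the 10 genes in each fat array, by group (x axis: PM, n = 3; AAT, n = 2; DIA, n = 2; NOR, n = 2). Filled circles are arrays at the probe set with the highest mean, bars their group mean, and open triangles a further probe set of the same gene; the y axes differ between panels and do not start at 0. Klrd1 has group means in the order PM, AAT, DIA and NOR with no overlap, and Gzma is lowest in the 2 AAT arrays.

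Klrd1 had 401, 459 and 318 in PM fat, 186 and 270 in AAT, 163 and 151 in DIA, and 126 and 114 in NOR. The groups stand in this order without overlap, with PM highest and NOR lowest. The change was 1.68 for PM vs NOR (SE 0.52, adjusted p = 1) and 1.16 for PM vs DIA (SE 0.52, adjusted p = 0.464). The mean log2 signals were 8.60 ± 0.27 in PM (SD, n = 3), 7.81 ± 0.38 in AAT, 7.29 ± 0.08 in DIA and 6.90 ± 0.10 in NOR (SD, n = 2 each), and none of the changes between neighbours in this order passed the study thresholds, with 0.63 for PM vs AAT (SE 0.52, adjusted p = 0.897), 0.56 for AAT vs DIA (SE 0.57, adjusted p = 1) and 0.50 for DIA vs NOR (SE 0.57, adjusted p = 0.866). PM vs NOR passed the study thresholds without each array in turn (1.58 to 1.83), whereas PM vs DIA missed them without DIA array 1 (1.20), DIA array 2 (1.19), PM array 1 (1.02) or PM array 2 (1.12). PM vs DIA also missed them with the actin covariate (0.76, adjusted p = 0.944), with the replicate number as a block (1.32, adjusted p = 0.722) and with rank product p-values, and the actin ratio was 3.35 to 6.32 in PM and 15.2 to 15.5 in DIA. The 3 NK cell markers summed to 454 to 1227 in PM, 362 to 747 in AAT, 455 to 576 in DIA and 482 to 1045 in NOR, which overlap. T cell markers summed to 2181 to 4644 in PM, 2289 to 3622 in AAT, 2360 to 3214 in DIA and 1816 to 3961 in NOR, which overlap as well.

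Gzma had 202, 179 and 217 in PM fat, 97.6 and 52.8 in AAT, 220 and 340 in DIA, and 339 and 143 in NOR. Both AAT arrays are the lowest of all 9 fat arrays, and PM lies just below DIA and inside the NOR range. The change was −1.88 for AAT vs DIA (SE 0.70, adjusted p = 1), −1.49 for AAT vs NOR (SE 0.70, adjusted p = 0.937) and 1.30 for PM vs AAT (SE 0.64, adjusted p = 0.89). Relative to DIA it missed the study thresholds without DIA array 2 (−1.49) or AAT array 2 (−1.33). It also missed them with the actin ratio as a covariate (−1.18, adjusted p = 0.655), and this ratio is highest in the 2 DIA arrays, as given above. AAT vs NOR and PM vs AAT each missed them in 7 of 11 alternative settings and in 6 of 9 fits without 1 array. Without AAT array 2 these changes were −0.92 (adjusted p = 0.732) and 0.73 (adjusted p = 0.72), and without NOR array 1 AAT vs NOR was −0.97 (adjusted p = 1). AAT vs NOR was also missed without DIA array 1 or 2 or PM array 1 or 3, and PM vs AAT without DIA array 1 or 2 or PM array 1, 2 or 3.

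The other genes of the list did not pass in fat. Ifng had 49.3, 77.1 and 12.7 in PM, 53.6 and 19.9 in AAT, 15.9 and 102 in DIA, and 222 and 85.7 in NOR. The NOR arrays lie at the top, apart from DIA array 2, and Ifng was above the array median in 0 of 9 fat arrays. Its changes relative to NOR were −1.94 in PM (SE 1.18, adjusted p = 1), −1.95 in AAT (SE 1.30, adjusted p = 0.937) and −1.67 in DIA (SE 1.30, adjusted p = 0.711), comparisons that share the 2 NOR arrays. Prf1 had 198, 463 and 319 in PM, 158 and 227 in AAT, 298 and 199 in DIA, and 393 and 294 in NOR. AAT lies below NOR, at a change of −0.71 (SE 0.58, adjusted p = 0.937), and all other pairs of groups overlap. The second Prf1 probe set differs here, with a change of 0.00 for AAT vs NOR (SE 0.68, adjusted p = 0.988).

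Nkg7 had 221, 346 and 454 in PM, 230 and 444 in AAT, 194 and 268 in DIA, and 483 and 33.2 in NOR. The 2 NOR arrays are the highest and the lowest of all fat arrays, so that its changes relative to NOR turn with the array kept. Without NOR array 1 they were 3.19 in PM (adjusted p = 0.718), 3.30 in AAT (adjusted p = 1) and 2.76 in DIA (adjusted p = 0.949), and all 3 passed the study thresholds as higher. Without NOR array 2 they were −0.44 in PM (adjusted p = 0.989), −0.29 in AAT (adjusted p = 0.777) and −0.78 in DIA (adjusted p = 0.541). Gzmb had 186, 46.7 and 133 in PM, 73.2 and 199 in AAT, 181 and 32 in DIA, and 393 and 62.4 in NOR, with overlap in all pairs of groups. Tbx21 lay between 171 and 334 in PM, AAT and DIA fat, and at 258 and 123 in NOR. Eomes lay between 153 and 529 over all fat arrays and overlapped in all pairs of groups.

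Fas had 919, 269 and 419 in PM fat, 582 and 354 in AAT, 313 and 890 in DIA, and 144 and 738 in NOR. The arrays of each group differ more than the group means do, and its change was 0.80 for DIA vs NOR (SE 0.81, adjusted p = 0.829). Fasl had 180, 223 and 159 in PM, 46.2 and 210 in AAT, 51.2 and 66.7 in DIA, and 261 and 69.5 in NOR at the probe set with the higher mean. DIA lies below PM and NOR, with a change of 1.52 for PM vs DIA (SE 0.88, adjusted p = 0.565) and −1.10 for DIA vs NOR (SE 0.96, adjusted p = 0.737). The other Fasl probe set had 193 and 59.1 in DIA and 33.3 and 44.5 in NOR, which is the opposite order, at a change of 1.58 (SE 1.09, adjusted p = 0.715).

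Normal PLNs and normal fat were set against each other in 1 fit of all 19 arrays. Klrd1 was the only 1 of the 10 genes called (3.07, SE 0.57, adjusted p = 0.000497), against 22.2% of all probe sets. Its signals of 545 to 1330 in 4 NOR PLN arrays lie above the 126 and 114 of NOR fat, and the call held without each array in turn, with an adjusted p of at most 0.0115. Tbx21 had a difference of 1.22 (SE 0.61, adjusted p = 0.174). Prf1 had 1.12 (SE 0.58, adjusted p = 0.191) at the probe set with the higher mean and −1.12 (SE 0.81, adjusted p = 0.325) at the other, so that the order of PLNs and fat for perforin depends on the probe set. T cell markers as a whole summed to 18470 to 34720 in NOR PLNs and 1816 to 3961 in NOR fat, and the 3 NK cell markers to 216 to 305 in NOR PLNs and 482 to 1045 in NOR fat, the opposite order to Klrd1. Of these 3 NK cell markers, 0 lay above the array median in NOR PLNs and 1 to 2 in NOR fat, so that their sums may be background. The sum over T cell markers thus did not overlap between the tissues, which is another measure than a call at an adjusted p. By adjusted p, 9 of the 10 effector genes are not called between them. Tbx21 did not overlap either, with 322 to 575 in NOR PLNs and 258 and 123 in NOR fat. Nor did Prf1 at the probe set with the higher mean, with 536 to 1060 against 393 and 294. The other genes of the list, apart from Klrd1, overlapped at this probe set. The share of all probe sets that do not overlap between NOR PLNs and NOR fat was not counted. These non-overlaps thus cannot be read as a trait of the genes named.

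**Figure D4:**
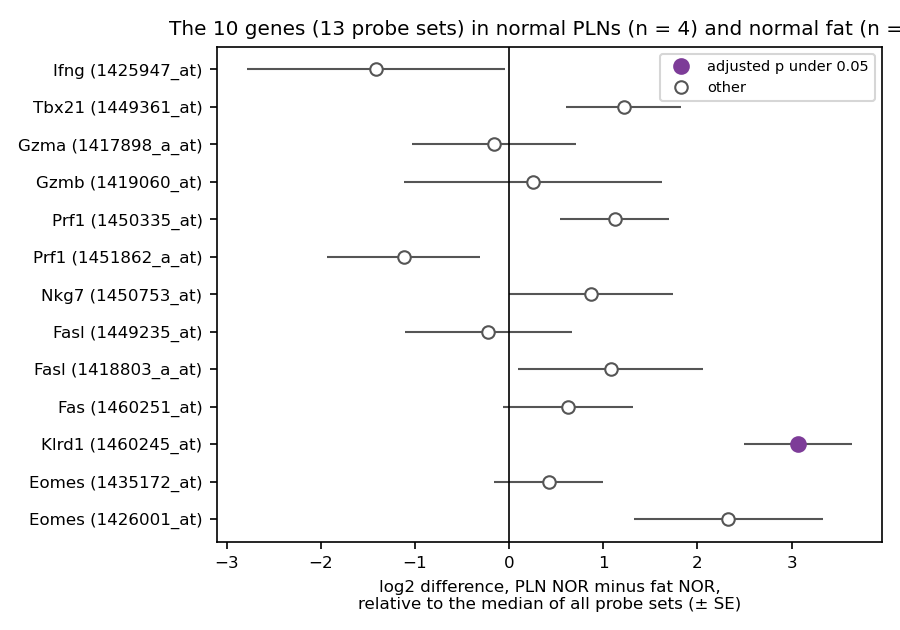
Log2 difference of NOR PLNs (n = 4) minus NOR fat (n = 2), relative to the median of all probe sets (x axis, ± SE), for the 13 probe sets of the 10 genes (y axis). The filled circle, Klrd1 at 3.07, is the probe set with an adjusted p under 0.05, and the 2 Prf1 probe sets lie at 1.12 and −1.12.

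The difference of an effect between PLNs and fat was tested as an interaction. For the DIA effect, 0 of 10 genes had an unadjusted p of at most 0.05 (8.87% of all probe sets). For the AAT effect 1 of 10 did (8.14% of all probe sets): Gzma, with a difference of 3.84 (SE 1.33, adjusted p = 0.535), beside changes of 2.01 in PLNs and −1.88 in fat in the fits of each tissue. No gene of the list was called, and without PLN DIA array 1 the difference for Gzma was 2.74 (adjusted p = 0.938) and no longer had an unadjusted p of at most 0.05.

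Genes of the pathways around these effectors were taken as lists. Of 22 genes of the interleukin 12, interleukin 18, interferon gamma and STAT pathway 19 were measured. In DIA relative to NOR PLNs, 1 passed the study thresholds as higher and 1 as lower (9.81% of all probe sets in either direction). The list had a median change of 0.21. Il12rb2, the interleukin 12 receptor chain of type 1 T cells, had 40.4 and 144 in DIA, against 943, 353, 305 and 439 in NOR (−2.48, SE 0.82, adjusted p = 0.262). It is among the genes the study displays for DIA PLNs, chosen on these arrays, so its direction is not independent evidence. Il2rb, the chain shared by the receptors for interleukin 2 and interleukin 15, had 2710 and 896 in DIA PLNs and 264, 798, 536 and 535 in NOR. Both DIA arrays exceed all NOR arrays, at a change of 1.77 (SE 0.61, adjusted p = 0.352).

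In AAT relative to DIA PLNs, 1 of the 19 passed as higher, as did 4.83% of all probe sets, and 4 as lower (11.7% of all probe sets). Il2rb had 200, 191, 299 and 151 in AAT, below both DIA arrays and, apart from AAT array 3, below all NOR arrays (−2.35, SE 0.61, adjusted p = 0.0707). Il12rb1, the other interleukin 12 receptor chain, had a change of −1.09 (SE 0.68, adjusted p = 0.237), and Il12b, the p40 subunit of interleukin 12, of −2.17 (SE 1.15, adjusted p = 0.243). In fat, Il2rb had 137, 528 and 388 in PM, 69.8 and 251 in AAT, 106 and 55.2 in DIA, and 300 and 344 in NOR. DIA lies below PM and NOR and overlaps AAT, at 1.84 for PM vs DIA (SE 0.77, adjusted p = 0.455) and −1.96 for DIA vs NOR (SE 0.84, adjusted p = 0.514). Runx3, a transcription factor of CD8 T cells and NK cells, also passed as higher in DIA vs NOR fat (3.02, SE 1.00, adjusted p = 0.457), with 50.1 and 111 in DIA and 11.7 and 8.35 in NOR. Both NOR signals and that of DIA array 1 lie below the 20th percentile of their array (64.8 and 47.9 in NOR, 55.6 in DIA array 1), so that the size of this change is poorly measured.

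Among all probe sets, 9.81% passed in DIA vs NOR PLNs in either direction. In AAT vs DIA PLNs 4.83% passed as higher and 11.7% as lower. In fat, 7.67% passed in DIA vs NOR in either direction and 4.6% as higher in PM vs DIA. Of 14 further granule and exocytosis genes, all measured, 0 passed in DIA vs NOR PLNs. In AAT vs DIA PLNs 1 passed as lower: Stxbp2 (Munc18-2), which takes part in granule release (−0.85, SE 0.52, adjusted p = 0.199). In fat, Ctsc, the protease that activates granzymes, passed as higher in DIA vs NOR (1.52, SE 0.46, adjusted p = 0.44). In that comparison 8 of 8 macrophage markers lay above the median of all probe sets, with a median change of 1.38. Their part was not tested. Gzmk, another granzyme, passed as higher in PM vs DIA fat (1.47, SE 0.56, adjusted p = 0.429). It also passed as higher in AAT vs NOR PLNs (1.76, SE 0.50, adjusted p = 0.201). There 11189 of 45037 probe sets had an unadjusted p under 0.05 by limma. Of 12 killer cell receptors measured of 16, 1 passed as lower in DIA vs NOR PLNs, Slamf7, a receptor of NK cells and plasma cells (−1.14, SE 0.50, adjusted p = 0.397). Another, Cd226, an activating receptor, passed as lower in AAT vs DIA PLNs (−1.25, SE 0.68, adjusted p = 0.209). None of the 12 passed in DIA vs NOR or PM vs DIA fat. Relative to NOR fat, Klrc1 passed as higher in PM (3.95, SE 1.07), as did 2.31% of all probe sets. It also passed as higher in AAT (3.72, SE 1.17, adjusted p = 0.93), and it was called in neither. Its mean signal in NOR fat was 7.11, against 20th percentiles of 64.8 and 47.9 in the NOR arrays. The size of these changes is thus poorly measured.

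Downstream of Fas, 12 of 16 genes were measured. The shares of all probe sets just given for these comparisons stand beside the counts here as well. Casp9, the initiator caspase of the mitochondrial pathway, passed as lower in DIA vs NOR PLNs (−1.34, SE 0.59, adjusted p = 0.409) and as higher in AAT vs DIA PLNs (2.71, SE 0.59, adjusted p = 0.125), comparisons that share the DIA arrays. Cycs, cytochrome c, was higher (2.28, SE 0.50, adjusted p = 0.139) and Bak1, which permeabilises mitochondria, lower (−1.78, SE 0.98, adjusted p = 0.239) in AAT vs DIA PLNs. In fat, Faim, an inhibitor of Fas killing, passed as lower in DIA vs NOR (−0.97, SE 0.31, adjusted p = 0.417). Among 12 measured genes of other T helper programmes, 1 passed as lower in DIA vs NOR PLNs, the cytokine gene Il5 (−2.82, SE 1.24, adjusted p = 0.435), and 1 as lower in AAT vs DIA PLNs, the type 2 lineage factor Gata3 (−1.28, SE 0.75, adjusted p = 0.232). Of 10 T cell markers, 7 lay above and 3 below the median of all probe sets in AAT vs DIA PLNs, with a median change of 0.48, and 1 passed. This was Cd8b1, a chain of the CD8 coreceptor, as lower (−0.86, SE 0.60, adjusted p = 0.244). In the same comparison 4 of 8 macrophage markers passed as higher, against 4.83% of all probe sets, and 0 as lower, and the whole list summed to 56180 to 103100 in AAT, 50670 to 66990 in DIA and 34270 to 55100 in NOR.

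Finally, the genes whose log2 signals most resembled Prf1, Fas and Ifng were listed as a description, without a test. Over the 10 PLN arrays, Prf1 correlated most with Thoc3 (Pearson r = 0.988), Cd4 (0.969) and Smad5 (0.968), among 18716 probe sets. Cd4 is the coreceptor of helper T cells. The Cd4 probe set that correlated with Prf1 is not the 1 with the highest mean, which stands among the T cell markers and had a change of 0.61 for AAT vs DIA (SE 0.51, adjusted p = 0.985), against −1.16 for Prf1. Fas correlated most with Atpsckmt (0.965), Zfp692 (0.962) and Ncoa2 (0.956), and Ifng with Atxn2 (0.895), Gtf3c6 (0.875) and St7l (0.848). Over the 9 fat arrays the closest were 5730455P16Rik (0.985), Mbp (0.977) and Otud3 (0.967) for Prf1, C1galt1c1 (0.948), Klf13 (0.946) and Il10rb (0.939) for Fas, and Mta3 (0.925), Sox3 (0.904) and Ccdc28b (0.902) for Ifng. The points of each correlation share the scale of their array.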

How the data were processed

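Expression was measured in PLNs and fat of female NOD mice on 19 Affymetrix Mouse 430 2.0 arrays, grouped by the tissue and treatment in the labels. The deposited values are MAS5 signals, an intensity on a linear scale, which the authors scaled so that the trimmed mean of every array, leaving out 2% at each end, is 500.0. Per the labels, RNA was extracted with Trizol. In its methods the study describes RMA values with rank products; values from RMA were not used here. MAS5 detection calls were not used here, so that low signals such as those of Ifng cannot be told from background.

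Values under 1 were set to 1 (589 values), and signals entered as log2, with no normalization added. Of 45037 probe sets (64 controls were left out), 34945 name 1 gene, 932 several and 9160 none. Symbols of 34741 were updated through Entrez identifiers. The tests are those of limma 3.58.1 (R 4.3.3), from 1 fit per tissue with eBayes and a variance trend, with Benjamini and Hochberg adjustment across all probe sets. The PLN against fat comparison and the interactions used 1 fit of all arrays. Rank products used 100 permutations (Python 3.11.15, numpy 2.4.6), and figures were drawn with matplotlib 3.10.9. The fits were tested on simulated data.

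The 10 genes and the lists were chosen with earlier results of these data known. All 10 genes were named, with values of every probe set in PLNs. From the other lists, up to 3 genes with the smallest p in DIA vs NOR and AAT vs DIA PLNs and in DIA vs NOR and PM vs DIA fat were named, where they passed the study thresholds. Gzmk in AAT vs NOR PLNs and Klrc1 in AAT and PM vs NOR fat were named in addition, after their values were seen. Each array was left out in turn, and the fits were repeated with means over probe sets, rank product p-values, an actin ratio covariate, no variance trend, only the groups compared, a replicate block, quantile normalization or median centring, 32 added to the signal before log2, a floor at the 20th percentile of signals, and filters on the mean at percentile 40 or 60. All alternatives of the PLN against fat comparison, and leaving out PLN DIA array 1 with AAT array 3, were chosen after seeing the data.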

Additional observations from a re-analysis of the deposited data

Results flagged for a closer look

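Among 26 sets of 4 PLN arrays, 1 for each probe set in AAT and in NOR, 2 held an array far from the other 3 by Dixon's test, and chance flags about 1 in 20. Ifng in PLN NOR array 4 had a log2 signal of 2.66 (signal 6.3), against signals of 96.6 to 109 in the other NOR arrays. Tbx21 in PLN AAT array 4 had a log2 signal of 6.76 (signal 108), against signals of 223 to 255 in the other AAT arrays. The median signal of PLN AAT array 4 was 94.1, and its part in the low Tbx21 signal was not tested.

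The AAT effect on Gzma differed between the tissues by an interaction test, with a difference of 3.84 (PLN minus fat, SE 1.33) that had an unadjusted p under 0.05 and did not pass after adjustment over all probe sets by limma (adjusted p = 0.535). In PLNs, signals were 65.6 to 674 in AAT and 39.4 to 129 in DIA, which overlap, and in fat they were 52.8 to 97.6 in AAT and 220 to 340 in DIA, which do not. The difference was 2.74 to 5.05 without each array in turn, and it missed an unadjusted p of 0.05 without PLN DIA array 1 (2.74, adjusted p = 0.938), fat DIA array 2 (3.45, adjusted p = 0.896) or fat AAT array 2 (3.26, adjusted p = 0.987).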

How the results depend on the processing

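Settings below are set against the counts and medians of the report. The count of genes called at an adjusted p stayed at 0 in every comparison and setting run, apart from AAT vs NOR PLNs, where it was 1 (Prf1) with a replicate block, 1 with the actin ratio as a covariate and 0 to 1 without each array (1 without AAT array 1 or 2), over adjusted p-values of Prf1 from 0.0263 to 0.477. The labels tie replicate numbers to no shared animal or batch. Deviations of arrays with the same number correlated at −0.041 to 0.281 in PLNs (median 0.211, against −0.0568 for other numbers). In fat they correlated at −0.261 to 0.291 (median −0.0665, against 0.0609). The median was higher for the same number in PLNs but not in fat. Values for the same and for other numbers are not independent where a group has 2 arrays, so they do not settle whether arrays were paired. Pairing was not taken as given and enters only as the replicate block. For genes past the study thresholds in DIA vs NOR PLNs, the count was 1 with only the groups compared (Nkg7), 1 with the actin covariate (Gzma), and 1 without the PLN arrays of highest acinar signal, DIA 1 and AAT 3 (Gzmb), an alternative chosen after seeing the data, and 0 to 1 without each array. In AAT vs DIA PLNs, with Prf1 and Nkg7 as lower in the report, it was 1 after quantile normalization (Prf1), 0 after median centring, 1 with the actin covariate and 1 with rank product p-values (both Gzma, as higher, with Prf1 and Nkg7 lost), and 0 to 3 without each array. In AAT vs NOR PLNs it was 1 (Prf1), 0 and 0 after quantile normalization, median centring and rank products, and 1 to 3 without each array. In fat, DIA vs NOR had 1 with rank products (Ifng) and 0 to 1 without each array. AAT vs DIA fat had 0 with the 60th percentile filter, which leaves out Gzma, 0 with the actin covariate and 0 to 1 without each array. PM vs DIA fat had 2 with only the groups compared (Klrd1 and Fasl), 1 with rank products (Fasl in place of Klrd1), 0 with the replicate block, 0 with the actin covariate and 0 to 1 without each array. AAT vs NOR fat had 0 with only the groups compared, the replicate block, the 60th percentile filter, quantile normalization, median centring, the signal plus 32 and the actin covariate, 1 with rank products (Ifng in place of Gzma), 2 with the floor (Gzma and Ifng), and 0 to 1 without each array. PM vs NOR fat had 2 with the floor and 2 with rank products (both Klrd1 and Ifng) and 1 to 2 without each array. PM vs AAT fat had 0 with these 7 settings of AAT vs NOR fat and with rank products, and 0 to 1 without each array.

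The median change of the genes moved by more than its spread between arrays (SD 0.607 in PLNs and 0.353 in fat) to 0.62 in DIA vs NOR PLNs without DIA 1 and AAT 3, and, with the 60th percentile filter, which leaves fewer genes, to −0.82 in AAT vs DIA PLNs, −0.60 in AAT vs NOR PLNs and 0.49 in DIA vs NOR fat. Without each array it was −0.86 to 0.62 in DIA vs NOR PLNs, −0.45 to 1.16 in AAT vs DIA PLNs, −0.47 to 0.35 in DIA vs NOR fat, 0.03 to 0.62 in AAT vs DIA fat, −0.52 to 0.64 in AAT vs NOR fat and −0.29 to 0.72 in PM vs NOR fat. For the interactions, 0 to 3 tests had a p of at most 0.05 without each array, against 1. Where leaving out an array left 1 in a group, that array was assumed to vary like the other groups. Leaving out DIA 1 and AAT 3 left 1 DIA array. The changes for AAT vs DIA PLNs were then 4.45 for Gzmb and −1.42 for Tbx21, against 0.83 and −0.27. Those of Prf1 and Nkg7 were −0.73 and −1.68, against −1.16 and −1.48. In AAT vs NOR PLNs, Tbx21 newly passed as lower with the floor (−0.60, adjusted p = 0.223) and with means over probe sets (−0.34, adjusted p = 0.184). A count that stays near its value can thus hold other genes. The causes of these differences were not tested. Of the values of single genes under an alternative, 1857 kept their side of the threshold, 57 no longer passed, 24 newly passed, and 0 that passed under either setting changed direction. MAS5 signals near the floor, such as those of Ifng and Gzmb, limit what can be seen.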
